A study of Mus musculus with 4 samples.

Results

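The genes of the inhibin and activin system and the receptor for anti-Müllerian hormone (AMH) were examined in mouse primary Leydig cells treated with a small interfering RNA (siRNA) against Trps1. The set holds 10 genes, given as a list of names drawn up with earlier results of these data known: the subunit genes Inha, Inhba and Inhbb, the receptor genes Acvr1, Acvr1b, Acvr2a, Acvr2b and Amhr2, and the genes of the activin-binding proteins, Fst and Fstl3. All 10 were found among the 55812 features of the read count table, and all 10 were among the 14701 genes with enough reads to be tested. The cells came from mice of 6 months, and 2 samples (numbered 1 and 2) received the control, Negative siRNA, and 2 received Trps1 siRNA. The labels give no strain, no siRNA sequence and no time after transfection. Whether the 2 samples per group are separate animals, cultures or preparations is not stated either, so the p-values rest on a spread that may be technical.

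Inhibins and activins are dimers that share their beta subunits. An alpha subunit joined to a beta subunit makes inhibin, and a pair of beta subunits makes activin, so the supply of alpha subunit helps to set which dimer a cell can assemble. Activin binds a type II receptor, which then activates a type I receptor and through it SMAD2 and SMAD3, while inhibin occupies the type II receptor together with the coreceptor betaglycan and blocks it. AMH uses its own type II receptor, AMHR2, with type I receptors of the bone morphogenetic protein (BMP) family and SMAD1 and SMAD5, and in Leydig cells it is known to restrain steroid synthesis.

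With Trps1 siRNA, 1 of the 10 genes passed the test, Inha, which rose 1.38-fold, and none fell. Over all genes tested, 11.2% passed, 5.24% as higher and 6.00% as lower, so a count of 1 in 10 lies near the background and the count itself is no result about the set. The transcript of the beta B subunit, Inhbb, was at 0.784 of its control level without passing the test, and the receptors and binding proteins had folds between 0.894 and 1.17. In 5 of the 10 genes the samples of the 2 groups did not overlap, against 52.2% of all genes tested. The median log2 fold change of the 10 genes was 0.11, and that of all genes tested was 0.002.

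Trps1 itself, the targeted gene, stood at 38.1 and 42.2 CPM (reads scaled for depth and composition of the library) in the controls and at 23.5 and 30.1 CPM with Trps1 siRNA. Both Trps1 siRNA samples lay below both controls, a fall to 0.671 of the control level (edgeR adjusted p = 0.000351). The libraries held between 17844125 and 25852898 counted reads. Leydig markers were abundant in every library, with summed levels of 9829 and 10011 CPM in the controls and 11883 and 12084 CPM with Trps1 siRNA, and 7 of 13 rose. Among these 7 were Cyp11a1 and Hsd3b1, with means of 2512.8 and 416 CPM in the controls and 3536.2 and 1110.1 CPM with Trps1 siRNA. Of the 13, 6 did not pass the test, among them Star, Insl3, Vcam1 and Ptgds, the last 2 with control means of 3447.6 and 1632.8 CPM. Cyp11a1 shares exon sequence on the same strand with Gm17322, and Insl3 with Jak3, so their values are less certain. Sertoli cells are the other main testicular source of inhibin subunits, and their marker genes were mixed in level. Fshr had no read in any library, Dmrt1 and Rhox5 at most 1 read and Amh at most 6 reads, while Sox9 had 54 to 88 reads (2.69 to 3.86 CPM), Wt1 97 to 166 reads (5.32 to 6.48 CPM) and Aard 300 to 374 reads. Of 12 Sertoli markers 6 were tested, 1 rose (Gata1) and 1 fell (Trf), and the log2 fold changes of Wt1 and Sox9 were -0.0054 ± 0.18 and 0.24 ± 0.23. The summed level of the Sertoli markers, 2989 to 3281 CPM, came mostly from Clu, which other cells express too. Macrophage markers summed to 3169 and 3087 CPM in the controls and to 2696 and 2123 CPM with Trps1 siRNA, with 7 of 15 markers lower past the test and none higher, and no marker of the list was at 0. The part of Sertoli or macrophage RNA in the values below was not tested, and in bulk samples fewer cells of a type and less RNA per cell cannot be told apart.

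**Figure D1:**
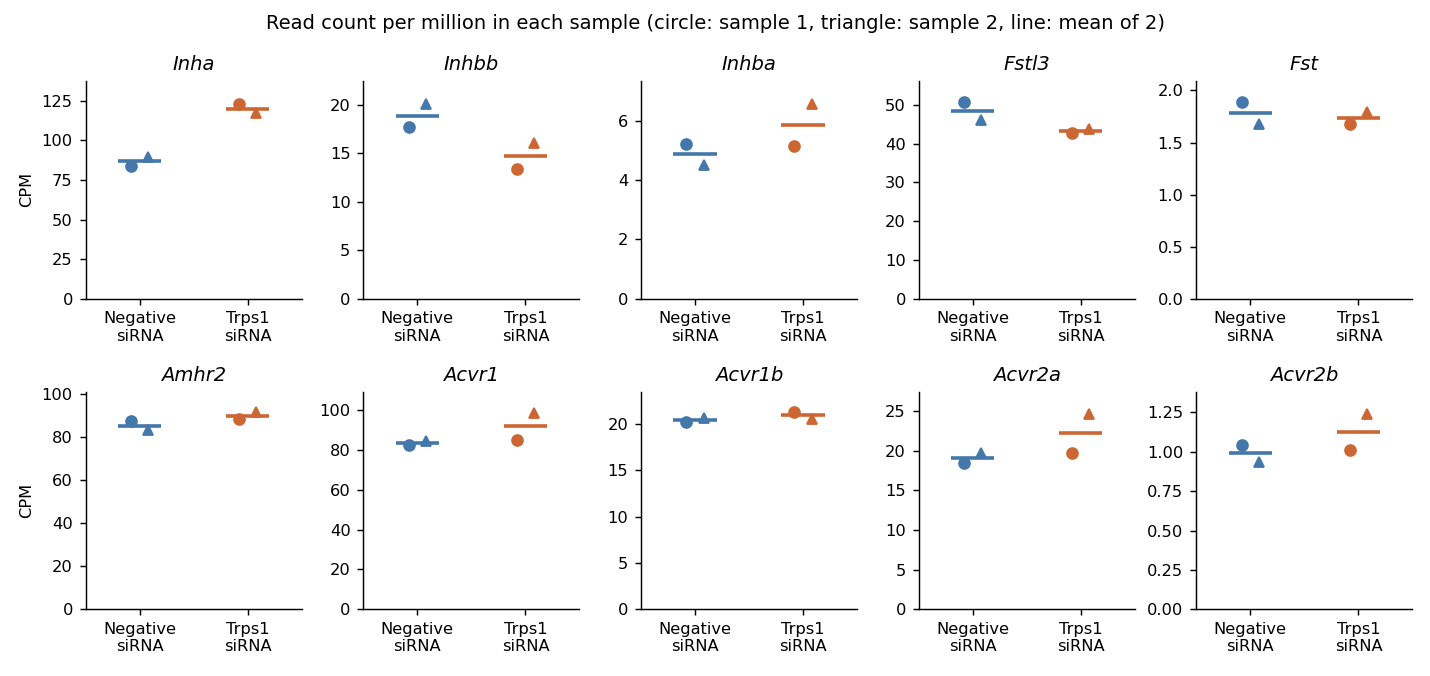
CPM (y axes from 0, one scale per gene) of the 10 genes in each sample, with circles for sample 1, triangles for sample 2 and lines for the mean of 2 samples. Inha shows the clearest separation, with controls at 83.9 and 89.5 and Trps1 siRNA samples at 123 and 117 CPM, while Fst and Acvr2b lie below 2 CPM.

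Among the subunit genes, Inha alone passed the test and was the most abundant of the 10 per length. Inha (ENSMUSG00000032968, protein coding, 2 exons in the annotation, chromosome 1, 75507077 to 75510366, plus strand, GRCm38) encodes the alpha subunit that is found only in inhibins. The controls had 1687 and 2291 reads and the Trps1 siRNA samples 2192 and 2545, or 83.9 and 89.5 CPM against 123 and 117 CPM. Both Trps1 siRNA samples lay above both controls, and the gap between the groups was wider than the distance between samples within either group. The group means were 86.7 ± 3.94 and 119.9 ± 4.02 CPM (SD, n = 2 per group), a log2 fold change of 0.47 ± 0.06 (standard error) with an edgeR adjusted p of 4.84e-06. The 95% interval of the log2 fold change ran from 0.34 to 0.59. Of the 770 genes that rose, 253 rose more than Inha, and their median fold was 1.29. The authors' deposited table of 780 genes holds Inha as the only one of the 10, with a log2 fold change of 0.47 and an adjusted p of 1.47e-06.

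Inhbb (ENSMUSG00000037035, chromosome 1, 119415465 to 119422248, minus strand) encodes the beta B subunit of inhibin B and activin B. The controls had 356 and 514 reads and the Trps1 siRNA samples 240 and 351, which is 17.7 and 20.1 against 13.4 and 16.1 CPM. Both Trps1 siRNA samples lay below both controls, but sample 2 of Trps1 siRNA was closer to sample 1 of the controls than to its own partner. The log2 fold change was -0.35 ± 0.12, with an unadjusted p of 0.00809 and an edgeR adjusted p of 0.064, just short of the threshold of 0.05. The value lay on the other side of the threshold with genes under 5 CPM left out (adjusted p = 0.0482), with no filter on low counts (adjusted p = 0.0453) and when sample 1 of Negative siRNA was left out (adjusted p = 0.0336). Inhbb did not pass with DESeq2 (adjusted p = 0.203) or limma voom (adjusted p = 0.077). The log2 fold change was -0.23 without sample 1 of Trps1 siRNA and -0.26 without sample 2 of Negative siRNA. The call for Inhbb thus depended on the setting, while its direction was negative in all 12 alternatives.

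Inhba (ENSMUSG00000041324, chromosome 13, 16011851 to 16031621, plus strand) encodes the beta A subunit of inhibin A and activin A. With 92 to 143 reads a library, it had 5.22 and 4.53 CPM in the controls and 5.15 and 6.58 CPM with Trps1 siRNA. The groups overlapped, and only sample 2 of Trps1 siRNA stood above the rest. The log2 fold change was 0.28 ± 0.19 (edgeR adjusted p = 0.409), and the interval of the fold, 0.924 to 1.60, covers a change as large as that of Inha. The 2 beta subunits of other activins, Inhbc and Inhbe, had no read in any library, where a count of 0 allows up to 3 reads, or 0.117 to 0.168 CPM.

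To compare subunits with each other, reads were divided by the annotated exon length of each gene. On that scale Inha stood at 56.9 and 60.7 CPM per kb in the controls and 83.2 and 79.4 with Trps1 siRNA, Inhbb at 4.16 and 4.72 against 3.16 and 3.80, and Inhba between 0.709 and 1.03. Inha therefore made up 92.0% and 91.8% of the 3 subunit transcripts per length in the controls and 95.5% and 94.3% with Trps1 siRNA. The groups did not overlap in this share, and the difference of 2.99 percentage points had an exact two-sided permutation p of 0.33, the smallest that 2 samples against 2 can give. The share of Inhbb was 6.73% and 7.14% in the controls and 3.62% and 4.51% with Trps1 siRNA, while that of Inhba, 0.925% to 1.32%, overlapped. There were 4.74 and 4.46 reads of Inha for each read of Inhbb in the controls and 9.13 and 7.25 with Trps1 siRNA. These are transcript ratios, and neither protein nor dimers were measured.

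**Figure D2:**
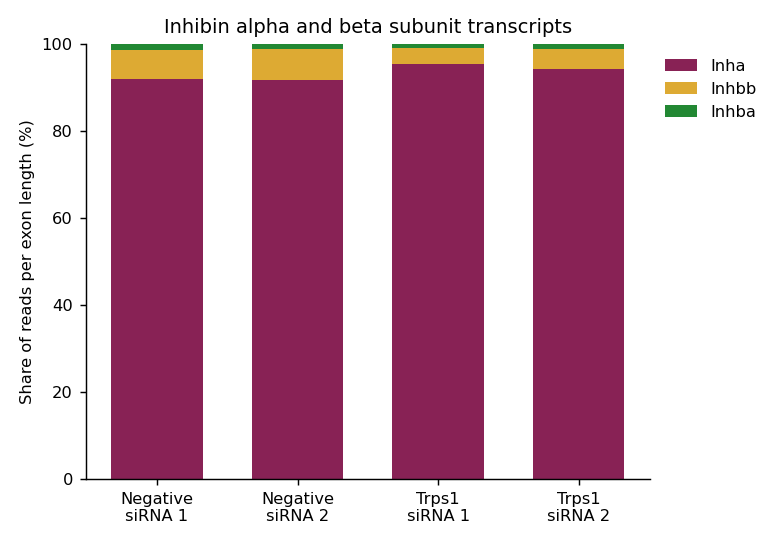
Share of Inha, Inhbb and Inhba in their summed reads per exon length, in percent (y axis, 0 to 100), in each of the 4 samples. Inha makes up 91.8% to 92.0% in the Negative siRNA samples and 94.3% to 95.5% in the Trps1 siRNA samples, with a lower share of Inhbb in the latter.

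The 250 bases upstream of the annotated start of Inhbb are shown because Inhbb and Inha, on the same chromosome, had fold changes of opposite sign, and because Trps1 is a GATA-type zinc finger protein. They lie at chr1:119422249-119422498 on the minus strand (RefSeq promoter table, GRCm38.p6), and the capitals mark a GATA motif, read here from the other strand. The letters searched, on both strands, were AGATAA, the same ending in G (AGATAG), and each of these with T as its first base (TGATAA or, ending in G, TGATAG).
Inhbb: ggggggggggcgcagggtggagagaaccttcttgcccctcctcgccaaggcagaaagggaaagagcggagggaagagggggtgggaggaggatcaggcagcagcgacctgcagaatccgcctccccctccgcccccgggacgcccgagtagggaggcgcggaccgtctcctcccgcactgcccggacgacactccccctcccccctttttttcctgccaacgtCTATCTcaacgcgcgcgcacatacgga
The match begins 27 bases before the start. At least 1 of these 4 motifs occurs in 26.5% of the 32851 upstream windows in the table, so a match is common and describes letters only. The table's window for Inha follows a second annotated start, 532 bases inside the gene, overlaps the first coding exon and was not used, and the table has no entry for Fst. Of the 8 genes whose window was searched, Inhbb and Amhr2 held a GATA motif. The RefSeq starts of Acvr1 and Acvr2b lie 329 and 60 bases inside the GENCODE gene, so the whole window of Acvr1 and part of that of Acvr2b fall within the annotated gene.

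The binding proteins of activin differed in level more than in response. Fstl3 (ENSMUSG00000020325, chromosome 10, 79777272 to 79782630, plus strand), a secreted protein that traps activin, had 50.6 and 46.1 CPM in the controls and 42.6 and 43.7 CPM with Trps1 siRNA. Both Trps1 siRNA samples lay below both controls by a margin smaller than the distance between the controls. The log2 fold change was -0.16 ± 0.08 (unadjusted p = 0.0499, edgeR adjusted p = 0.209). Its exons overlap Prss57 on the opposite strand, which had at most 3 reads in a library.

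Fst (ENSMUSG00000021765, chromosome 13, 114452290 to 114458951, minus strand) encodes follistatin, the classical activin antagonist. It had 38, 43, 30 and 39 reads in the order of the samples, or 1.89 and 1.68 CPM against 1.68 and 1.79 CPM. The groups overlapped, and at this depth the fold of 0.979 had an interval from 0.624 to 1.54, so a change of the size of that of Inha was not detectable. Per exon length, Fst and Fstl3 together stood at 4.24 and 3.54 times the sum of Inhba and Inhbb in the controls and at 4.48 and 3.79 times with Trps1 siRNA. These ratios overlapped between the groups (exact two-sided permutation p = 0.667). The sign of their difference turned without sample 2 of Negative siRNA (-0.108) and without sample 1 of Trps1 siRNA (-0.104).

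Among the receptors, Amhr2 was the most abundant per length. Amhr2 (ENSMUSG00000023047, chromosome 15, 102445367 to 102454633, plus strand), the type II receptor that binds AMH alone, had 87.6 and 83.2 CPM in the controls and 88.6 and 91.5 CPM with Trps1 siRNA. Both Trps1 siRNA samples were above both controls, by about 1 CPM at the nearest pair. The log2 fold change was 0.08 ± 0.06 (edgeR adjusted p = 0.499), and the interval of the log2 fold change, -0.05 to 0.21, lies below that of Inha, 0.34 to 0.59. The ligand Amh had 3, 0, 0 and 6 reads, too few to test, so these libraries held receptor transcript with almost no ligand transcript.

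The 250 bases upstream of Amhr2 (chr15:102445117-102445366, plus strand, RefSeq promoter table, GRCm38.p6) are shown because of NR5A1, an orphan nuclear receptor known to activate this promoter in mouse. Its transcript, Nr5a1, rose from 524 and 554 CPM to 713 and 733 CPM, 1.34-fold (edgeR adjusted p = 2.21e-05), while Amhr2 did not pass the test. In capitals, from left to right, are the NR5A1 half-site letters AAGGTCA and a GATA motif read from the other strand.
Amhr2: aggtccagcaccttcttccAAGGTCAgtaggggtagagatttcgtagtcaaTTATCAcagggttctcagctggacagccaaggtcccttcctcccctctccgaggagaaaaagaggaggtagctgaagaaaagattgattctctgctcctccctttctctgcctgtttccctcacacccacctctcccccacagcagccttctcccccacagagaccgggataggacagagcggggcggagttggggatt
The matches begin 231 and 199 bases before the start and do not overlap. AAGGTCA, on either strand, was found in 1 of the 8 windows searched, that of Amhr2, and in 4.08% of all windows in the table. The match describes letters only, and binding of NR5A1 was not measured. The cyclic AMP response letters TGACGTCA were in none of the 8 and in 1.55% of all windows, which says only that these letters are not in these windows.

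The type I receptors were Acvr1 and Acvr1b. Acvr1 (ENSMUSG00000026836, chromosome 2, 58388644 to 58567157, minus strand) encodes ALK2, a type I receptor that serves AMH and BMPs. It had 82.5 and 84.2 CPM in the controls and 84.9 and 98.3 CPM with Trps1 siRNA. Sample 1 of Trps1 siRNA lay next to the controls and sample 2 well above them. The log2 fold change was 0.14 ± 0.07 (edgeR adjusted p = 0.217), 0.24 without sample 1 of Trps1 siRNA (adjusted p = 0.0226) and 0.02 without sample 2 (adjusted p = 0.923). Acvr1b (ENSMUSG00000000532, chromosome 15, 101174067 to 101213684, plus strand), encoding ALK4, a type I receptor of activin, had 20.2 and 20.7 CPM against 21.3 and 20.6 CPM. The groups overlapped, and the fold of 1.02 had an interval from 0.879 to 1.19.

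The type II receptors of activin differed in level. Acvr2a (ENSMUSG00000052155, chromosome 2, 48814109 to 48903269, plus strand) had 18.4 and 19.7 CPM in the controls and 19.7 and 24.6 CPM with Trps1 siRNA, with sample 2 of Trps1 siRNA the only one set apart. The log2 fold change was 0.22 ± 0.11 (edgeR adjusted p = 0.249), 0.36 without sample 1 of Trps1 siRNA and 0.05 without sample 2. Its exons overlap Orc4 on the opposite strand, with 495 to 638 reads, and no source states whether the counting used strand. Acvr2b (ENSMUSG00000061393, chromosome 9, 119402118 to 119434995, plus strand) had 21, 24, 18 and 27 reads, about 1 CPM in each library, and the interval of its fold ran from 0.638 to 2.06. Acvr1, Acvr2a, Acvr2b, Inhba and Amhr2 had their highest CPM in sample 2 of Trps1 siRNA, and the other genes of the set peaked in other samples. The macrophage markers had their lowest sum in sample 2 of Trps1 siRNA (2123 CPM), and a link with these genes was not tested.

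**Figure D3:**
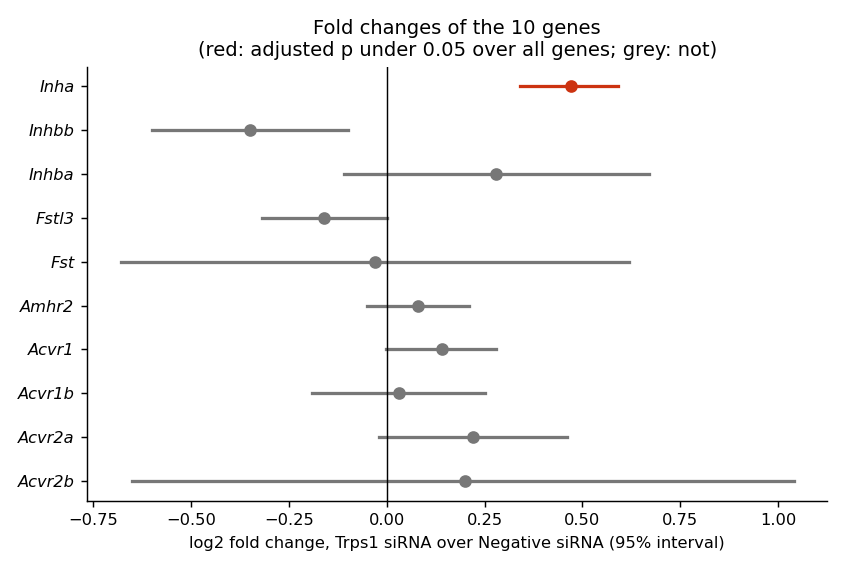
Log2 fold change, Trps1 siRNA over Negative siRNA (x axis), of the 10 genes with 95% intervals from the fit across all genes, n = 2 per group. The interval of Inha runs from 0.34 to 0.59 and that of Inhbb from -0.60 to -0.10 before adjustment over all genes, while the widest belong to Acvr2b and Fst, which had under 50 reads a library.

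By level per exon length over all 4 samples, the order was Inha (70.0 CPM per kb), Amhr2 (43.7), Fstl3 (18.7), Acvr1 (18.1), Acvr1b (4.69), Inhbb (3.96), Acvr2a (3.62), Inhba (0.841), Fst (0.384) and Acvr2b (0.269). Inha lay above 94.7% and Amhr2 above 91.6% of the 14425 tested genes with an annotated length, and Acvr2b above 6.73%. Over all 4 samples the values of Fstl3 and Acvr1, of Acvr1b and Inhbb and of Inhbb and Acvr2a overlapped, a spread that includes the difference between the groups. Within the controls, Fstl3 lay above Acvr1 and Inhbb above Acvr2a in both samples, while Acvr1b and Inhbb overlapped. With Trps1 siRNA, Acvr1b (4.82 and 4.67 CPM per kb) lay above Inhbb in both samples, and Fstl3 overlapped Acvr1. Inhbb (3.16 and 3.80) then overlapped Acvr2a (3.47 and 4.32), with the mean of Acvr2a the higher. Every other pair of neighbours was apart in all 4 samples. Among the receptors, the AMH receptor thus stood at 2.24 to 2.56 times the level of Acvr1 per length in each library, and the activin type II receptor Acvr2a at 3.23 to 4.32 CPM per kb was well above Acvr2b at 0.239 to 0.316.

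The wider pathway was described with lists of ligands, receptors, antagonists, convertases, SMAD proteins, target genes and promoter regulators. Of 61 tested genes outside the 10 and Trps1, 5 rose and 5 fell, while 51 gave no call, with a median log2 fold change of 0.02. The share that passed was 16.4%, against 11.2% of all genes tested. With DESeq2 4 of them passed, and with the replicate number as a block 15. Among 10 tested receptors and coreceptors 2 rose and 2 fell. Tgfbr3, which encodes betaglycan, the coreceptor that gives inhibin its affinity for type II receptors, rose from 398 and 379.8 CPM to 526 and 568 CPM. All values of one group were apart from the other, and the fold was 1.41 (edgeR adjusted p = 3.99e-06). The transcripts of the alpha subunit and of the inhibin coreceptor thus both rose. Tgfbr3 shares exon sequence on the same strand with Gm43422, which had at most 6 reads in a library.

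Bambi, a decoy receptor without kinase, rose 1.25-fold (adjusted p = 0.0203), a call lost without sample 2 of Trps1 siRNA (adjusted p = 0.42), with DESeq2 (adjusted p = 0.0899) and when sample 1 of Negative siRNA was omitted (adjusted p = 0.056). The TGF-beta type II receptor Tgfbr2 fell to 0.853 and the coreceptor endoglin, Eng, to 0.847 of the control level (edgeR adjusted p = 0.0245 and 0.0268). Both calls were lost with DESeq2 (adjusted p = 0.101 and 0.0988) and without sample 2 of Trps1 siRNA (adjusted p = 0.345 and 0.238) or sample 2 of Negative siRNA (adjusted p = 0.168 and 0.0581), and that of Eng also without sample 1 of Negative siRNA (adjusted p = 0.142). Eng overlaps Fpgs on the opposite strand, with 274 to 374 reads. Bmpr1a, a type I receptor through which AMH signals, had 83.3 and 82.7 CPM against 90.9 and 97.8 CPM and did not pass the test (log2 fold change 0.19 ± 0.06, adjusted p = 0.0552), though it did in 4 alternatives, among them the fit without sample 1 of Trps1 siRNA (adjusted p = 0.0241).

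Of 7 tested antagonists, Fstl1, a secreted relative of follistatin, rose from 99.6 and 105 CPM to 128 and 126 CPM, 1.24-fold (edgeR adjusted p = 0.000435). Decorin, Dcn, a matrix proteoglycan that binds TGF-beta family ligands, fell to 0.833 of the control level (edgeR adjusted p = 0.00268), and 5 did not pass the test. None of 5 tested ligands and none of 5 convertases passed edgeR's test, with 2 and 0 at an unadjusted p under 0.05.

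Downstream, 1 of 14 SMAD genes and regulators passed the test. The signal carriers of activin, Smad2 and Smad3, had log2 fold changes of -0.02 ± 0.07 and -0.07 ± 0.08, and those of AMH, Smad1 and Smad5, had -0.21 ± 0.08 and 0.0047 ± 0.08, none past the test. Smad6, an inhibitor of BMP and AMH signalling, fell to 0.828 of the control level (edgeR adjusted p = 0.0389). That call was lost in 7 of 12 alternatives, among them DESeq2 (adjusted p = 0.147) and the fits without sample 1 of Negative siRNA (adjusted p = 0.321), sample 1 of Trps1 siRNA (adjusted p = 0.139) and sample 2 of Trps1 siRNA (adjusted p = 0.0873).

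Of 13 tested target genes of these SMADs, 2 fell, Smad6 and Ccn2, and 11 did not pass the test. The BMP and AMH targets Id1, Id2 and Id3 had log2 fold changes of -0.08, -0.07 and -0.02. Ccn2, a matrix-associated growth regulator, fell to 0.742 of the control level (edgeR adjusted p = 0.0209). DESeq2 (adjusted p = 0.0864) did not call it, nor did the fits that left out sample 1 of Negative siRNA (adjusted p = 0.0504), sample 2 of Negative siRNA (adjusted p = 0.0791) or sample 1 of Trps1 siRNA (adjusted p = 0.136). Among regulators of inhibin promoters, Nr5a1 and Gata1 rose, Gata1 1.33-fold from 15.6 and 17.3 to 22.0 and 21.8 CPM, while Gata4 had a log2 fold change of 0.02 ± 0.06. The call of Gata1 (edgeR adjusted p = 0.0154) was not made by DESeq2 (adjusted p = 0.0612) or when leaving out sample 1 of Negative siRNA (adjusted p = 0.12), sample 1 of Trps1 siRNA (adjusted p = 0.0567) or sample 2 of Trps1 siRNA (adjusted p = 0.0948).

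**Figure D4:**
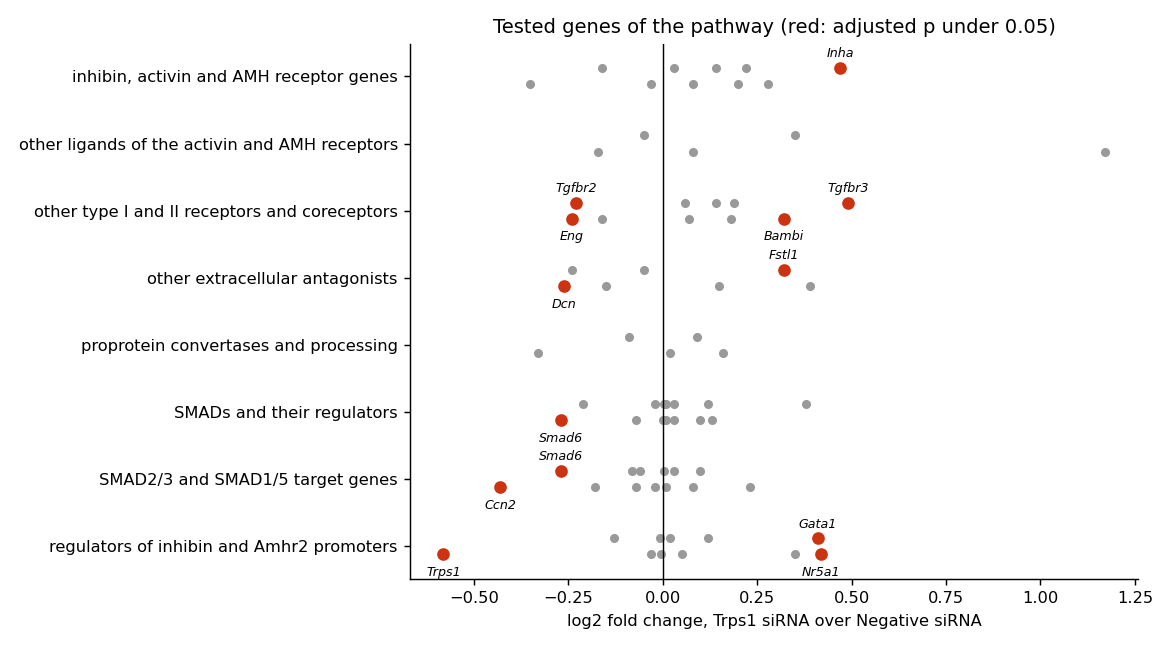
Log2 fold change, Trps1 siRNA over Negative siRNA (x axis), of every tested gene in each list (rows), with red named points for an adjusted p under 0.05 and grey points for the rest. Tgfbr3 (0.49), Inha (0.47) and Nr5a1 (0.42) lie farthest to the right among the red points. The lists of SMAD genes and of their targets have medians of 0.01 and -0.02, with Smad6 (-0.27) and Ccn2 (-0.43) in red to the left of 0.

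**Figure D5:**
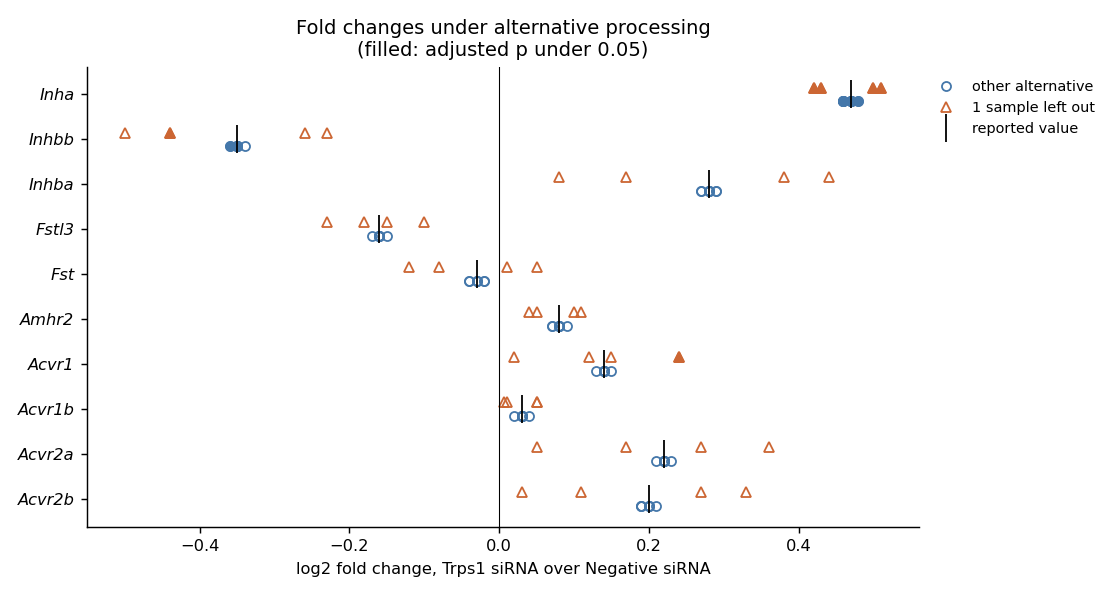
Log2 fold change (x axis) of the 10 genes in the reported fit (black bars), with 1 sample left out (triangles) and under other alternatives (circles), filled where the adjusted p was under 0.05. Inha stays between 0.42 and 0.51 with all points filled, Inhbb runs from -0.50 to -0.23 with some points filled, and Fst crosses 0.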

How the data were processed

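RNA sequencing of 4 samples of primary Leydig cells was analysed, 2 per group, grouped by the titles in the labels. The authors deposited raw read counts per gene. HISAT2, featureCounts and the build GRCm38 (mm10) are listed, without versions, in the submitters' processing notes, and no source states the strand setting. The authors' deposited table of their own comparison holds mean signal (normalised counts) per group, log2 fold changes and p-values from a test that no source names.

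Symbols, positions and exon lengths came from GENCODE M21 (GRCm38), matched for 55141 of 55812 features. The count table was fitted across all genes with edgeR 4.0.16 in R 4.3.3 (TMM, filterByExpr with a minimum count of 10, robust glmQLFit, glmQLFTest, group only, 2 residual degrees of freedom, Benjamini-Hochberg adjustment, threshold 0.05). CPM used the reads of the tested genes in each library multiplied by TMM factors of 0.9911 to 1.007. Over all features the libraries held 17844125 to 25852898 reads, and this depth limits the precision of genes with few reads. Standard errors are the absolute log2 fold change over the root of F, and 95% intervals use the moderated degrees of freedom. The fit was tested on simulated data. Replicates differed by more than sampling noise (mean chi-square per gene 7.58 and 4.56).

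The 10 genes and all lists were chosen with earlier results of these data known. Named genes were the 10, Trps1, up to 4 genes per list with the smallest p under the threshold, and Amh, Tgfbr3, Bmpr1a, Smad1, Smad2, Smad3 and Smad5. Other genes, such as Id1, Gata4, Inhbc, Clu, Wt1, Sox9 and Trf, were named after their values were seen. Motifs were searched in the 250 bases before RefSeq starts (GRCm38.p6), with the motifs chosen after seeing the data. Alternatives were scaling by RLE or by library totals, testing without a filter on low counts or only genes averaging 5 CPM or more, DESeq2 1.42.0, voom of limma 3.58.1, a non-robust fit, the replicate number as a block and leaving out each sample. Transcript ratios were also taken without exon length and with the longest transcript. Of the lists, Leydig progenitor, smooth muscle, endothelial, germ cell and erythroid markers had 7, 4, 8, 1 and 0 tested genes, of which 0, 1, 0, 0 and 0 rose and 1, 2, 0, 0 and 0 fell.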

Additional observations from a re-analysis of the deposited data

How the results depend on the processing

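Inha kept its direction and its call in all 12 alternatives (log2 fold change 0.42 to 0.51). With DESeq2, 991 of all genes changed in place of 1652, and with 1 sample left out 871 to 1675, fewest without sample 2 of Trps1 siRNA. Of the 10 genes, 2 passed with no low-count filter, with a mean of at least 5 CPM and with the replicate block, and 1 to 2 with a sample left out. The added gene was Inhbb in each (-0.36 with no filter, -0.35 with the 5 CPM filter and -0.35 with the block), except without sample 1 of Trps1 siRNA, where it was Acvr1. With a sample left out, the log2 fold change ran from -0.50 to -0.23 for Inhbb, from 0.02 to 0.24 for Acvr1 and from -0.12 to 0.05 for Fst, which turned positive without sample 1 of Negative siRNA (0.05) and without sample 1 of Trps1 siRNA (0.01). Of the wider pathway, 4 genes passed with DESeq2 and 5 to 8 with a sample left out, against 10. Smad2 ran from -0.08 to 0.03 with a sample left out, positive without sample 1 of Trps1 siRNA, and Smad5 to -0.0036 with no low-count filter and to -0.05 without sample 2 of either group. The difference in the Inha share was 6.81 percentage points without division by exon length, and that of the binding protein ratio ran from -0.108 to 0.597 with a sample left out, -0.104 without sample 1 of Trps1 siRNA. The cause of these shifts was not tested. The shared replicate numbers do not pair the samples by the labels, the deviations of same-numbered samples had a correlation of 0.0165 across genes, and the replicate block raised the count over all genes to 2285. With fewer than 50 reads a library, depth limits what Fst and Acvr2b can show.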
